A study of Ovis aries with 8 samples.

Results

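Serine synthesis and folate one-carbon metabolism are carried by a small set of enzymes. PHGDH, PSAT1, PSPH, SHMT1, SHMT2, MTHFD1, MTHFD2, MTHFD1L and ALDH1L2, 9 in all, were looked up by symbol in an expression table of fetal sheep cultures. The cultures are labelled as pulmonary artery endothelial cells. Of the 9, 8 had a row of their own among the 15380 rows of the table. MTHFD2 had no row under its symbol, but a row named by an NCBI gene number is paired with MTHFD2 in the RefSeq gene table, and its values are given beside the others without being counted among the 8. SHMT2 is also an older synonym of SHMT1 in that gene table, and the array table holds a row under each symbol.

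Cells of the labelled type line the artery that carries blood from the heart to the lungs, and the cultures came from near-term fetuses of Ovis aries. Marker values that bear on this label are given below. There were 4 cultures from growth-restricted fetuses (IUGR, labelled hyperthermic, passage 3 or 4) and 4 control cultures (labelled normothermic, passage 5 or 6). Each title names its own animal, and each culture was measured on 1 array. The question is what growth restriction changes in the RNA of such cells, and in this design growth restriction cannot be told apart from hyperthermia or from passage.

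In serine synthesis PHGDH oxidises 3-phosphoglycerate, drawn from glycolysis, PSAT1 adds an amino group from glutamate, and PSPH removes the phosphate to leave serine. SHMT1 in the cytosol and SHMT2 in mitochondria then pass a carbon unit of serine to tetrahydrofolate and release glycine. In mitochondria MTHFD2 and MTHFD1L carry that unit on to formate, and ALDH1L2 can instead oxidise it to carbon dioxide while making NADPH. MTHFD1 takes up formate in the cytosol for purine and thymidylate synthesis. In human and mouse endothelial cells PHGDH is known to be needed for nucleotide and heme synthesis, and in mammalian cells the transcription factor ATF4 is known to switch on several of these genes when amino acids run short.

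PHGDH, the entry enzyme of serine synthesis, was the only 1 of the 8 enzymes with higher values in every IUGR culture than in any control culture. SHMT2 and PSAT1 had higher values in 3 of the 4 IUGR cultures than in any control. The first IUGR culture had the highest value of all 8 arrays for 7 of the 8 enzymes, SHMT1 included, and for 12.4% of all rows. The cytosolic SHMT1 was at background, and MTHFD1L and the MTHFD2 row had nearly equal group means. No enzyme passed in limma after Benjamini-Hochberg adjustment over all rows at 0.05, and neither did any of the 15380 rows (0%), while 2350 rows (15.3%) had an unadjusted p under 0.05, 7.8% of rows higher and 7.48% lower in IUGR. The groups did not overlap for 8.36% of rows in either direction. The p-values set the group difference against the spread among these 8 cultures within their groups. They do not separate growth restriction from hyperthermia or passage.

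The labelled cell type was checked with 8 measured endothelial markers, whose summed intensity ran from 93.4 to 2758 in IUGR and from 2556 to 8749 in control cultures. In IUGR replicates 2 and 4, 3 of the 8 were at or below 3.44 on the log2 scale (10.8 intensity units), the 95th percentile of 127 olfactory receptor rows, taken here as the background level. The summed intensity of 10 fibroblast markers was 10414 to 18873 in IUGR cultures and 524 to 12181 in control cultures, where 12181 was that of control replicate 4. The 8 measured mesothelial and epithelial markers summed to 4939 and 8765 in IUGR replicates 2 and 4 and to at most 150 elsewhere. The 5 smooth muscle markers summed to 1272 to 8084 in IUGR and 1028 to 14220 in control cultures, and the 6 leukocyte markers to 126 to 1096 in IUGR and 438 to 1209 in control cultures. Of the leukocyte markers LAPTM5 had log2 means of 5.94 in IUGR and 9.48 in control cultures, CD68 6.35 and 6.27, and PTPRC 2.65 and 2.79, below the background level. What part these differences have in the enzyme values was not tested, and in whole cultures a different mix of cells cannot be told apart from a different RNA level per cell.

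PHGDH had intensities of 478, 207, 248 and 237 in IUGR replicates 1 to 4, against 134, 85.5, 71.8 and 167 in control replicates 1 to 4. The groups did not overlap, and the closest pair was IUGR replicate 2 and control replicate 4. On the log2 scale the means were 8.11 ± 0.54 in IUGR and 6.76 ± 0.56 in control cultures (SD, n = 4 each), a difference of 1.35 ± 0.37 (SE), or 2.55-fold (95% interval of the log2 difference 0.48 to 2.22). Its limma p was 0.00825 unadjusted and 0.173 adjusted, and it ranked at position 728 of all rows. Rows with higher, non-overlapping IUGR values made up 4.37% of the table, and PHGDH was 1 of 8 enzymes. Without IUGR replicate 1 the difference was 1.09, and with passage as a covariate it was 0.14, although passage did not overlap between the groups.

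PSAT1, the second enzyme of the route, varied most. Its intensities were 1106, 296, 462 and 85.5 in IUGR replicates 1 to 4, against 132, 111, 56.9 and 227 in control replicates 1 to 4. IUGR replicates 1 to 3 lay above every control, and IUGR replicate 4 lay below all controls but replicate 3. The highest array was 19.5-fold above the lowest, the widest range among the 8 enzymes. The log2 means were 8.40 ± 1.54 in IUGR and 6.87 ± 0.82 in control cultures (SD, n = 4 each), with a difference of 1.52 ± 0.82 (SE; 95% interval -0.43 to 3.47; limma adjusted p = 0.436). Leaving out IUGR replicate 1 gave 0.95 and leaving out IUGR replicate 4 gave 2.18, so its size moved with single cultures, and with passage as a covariate it was 0.93.

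PSPH, which completes serine synthesis, did not follow PHGDH. It read 402, 91.4, 294 and 145 in IUGR replicates 1 to 4 and 210, 159, 94.7 and 229 in control replicates 1 to 4. IUGR replicates 1 and 3 lay above every control and IUGR replicate 2 below every control. The log2 difference was 0.28 ± 0.53 (SE; 95% interval -0.98 to 1.54; limma adjusted p = 0.874). It was -0.060 without IUGR replicate 1 and -2.18 with passage as a covariate (limma unadjusted p = 0.166). IUGR replicate 2 therefore had PHGDH and PSAT1 above every control and PSPH below every control.

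**Figure D1:**
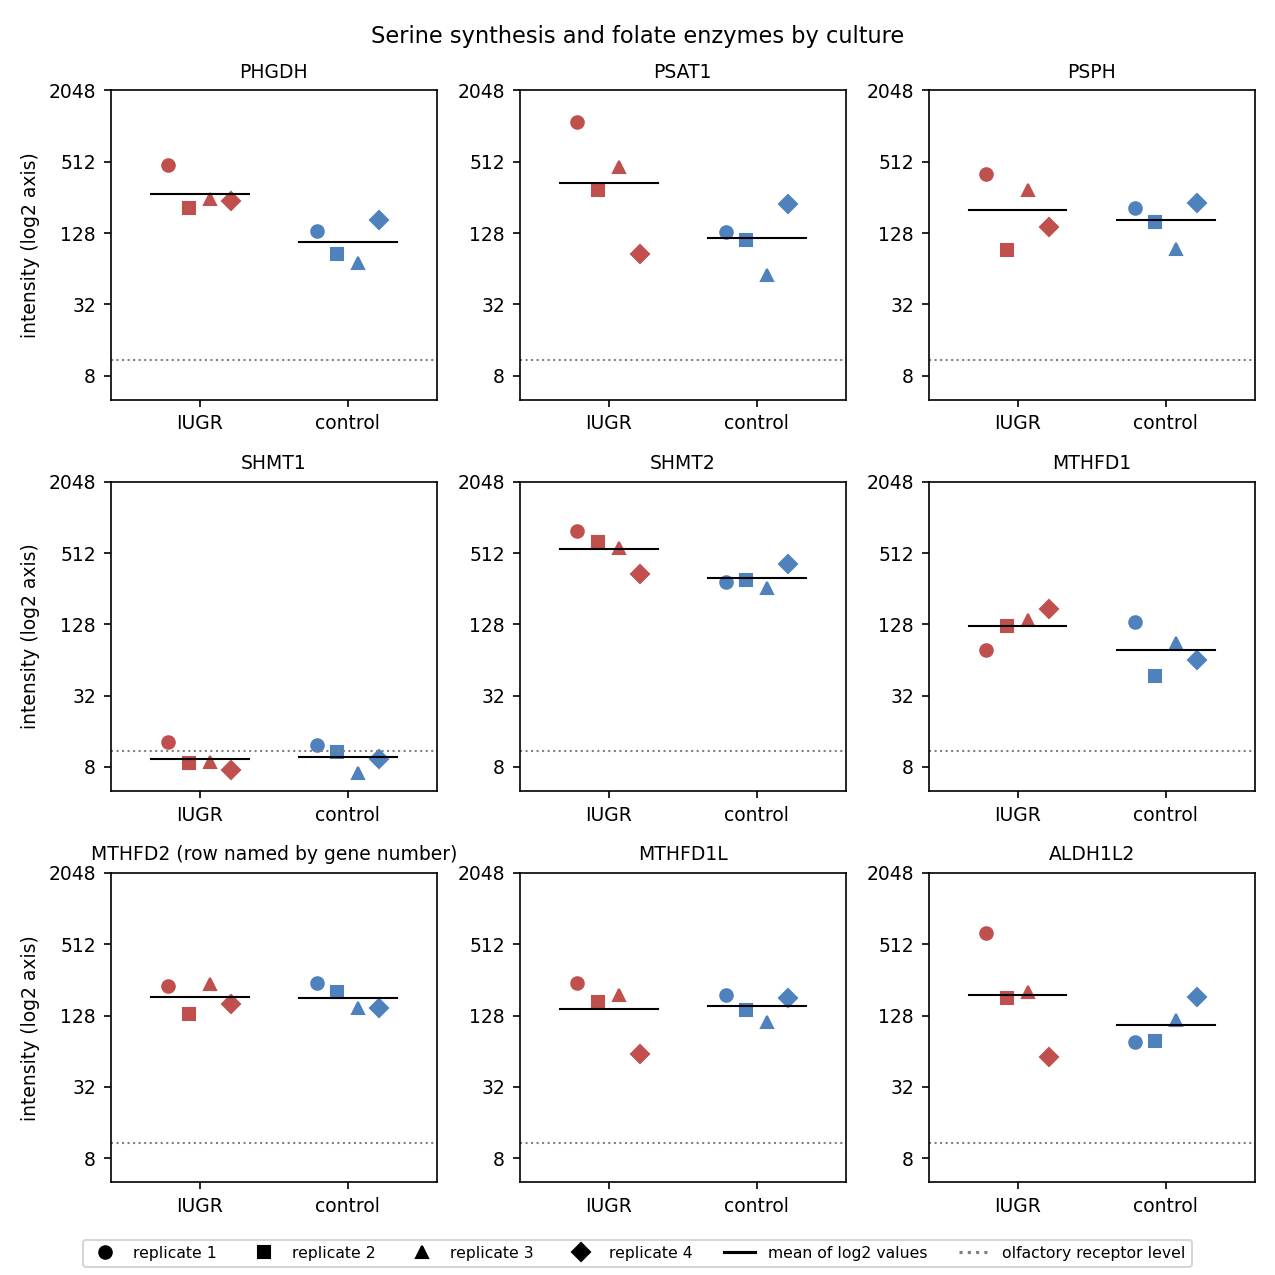
Intensity of each enzyme (log2 axis) in 4 IUGR cultures (red, left) and 4 control cultures (blue, right); symbols mark the replicate, the black line is the mean of the log2 values and the dotted line the olfactory receptor level of 10.8. PHGDH is the only enzyme whose groups do not overlap, PSAT1 and ALDH1L2 spread most within IUGR, and SHMT1 lies around the dotted line.

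SHMT2, the mitochondrial hydroxymethyltransferase, read 787, 629, 560 and 340 in IUGR replicates 1 to 4 and 294, 306, 262 and 416 in control replicates 1 to 4. Only IUGR replicate 4 overlapped the controls, lying below control replicate 4 and above the other three. The log2 means were 9.11 ± 0.51 in IUGR and 8.30 ± 0.29 in control cultures (SD, n = 4 each), with a difference of 0.82 ± 0.28 (SE), or 1.76-fold (95% interval 0.16 to 1.48). The limma p was 0.0223 unadjusted and 0.243 adjusted. With passage as a covariate the difference was 1.29 (limma unadjusted p = 0.202). PHGDH and SHMT2 were thus 2 of 8 enzymes with higher values at an unadjusted p under 0.05, where 7.8% of all rows were.

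SHMT1, the cytosolic counterpart, read 12.9, 8.73, 8.77 and 7.61 in IUGR cultures and 12.3, 10.7, 7.15 and 9.29 in control cultures, and was above the background level on 2 of 8 arrays. Its difference of -0.06 ± 0.22 (SE; limma adjusted p = 0.971) is that of a row at background and gives no measure of its RNA. The 2 compartments were therefore not compared for this step.

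ALDH1L2, the mitochondrial enzyme that oxidises the formyl group of folate, was far higher in 1 culture than in any other. It read 641, 182, 202 and 57.8 in IUGR replicates 1 to 4 and 77.3, 78.2, 117 and 183 in control replicates 1 to 4. IUGR replicate 1 stood 3.17-fold above the next array, and IUGR replicate 4 was the lowest of all 8. The log2 difference was 0.85 ± 0.72 (SE; 95% interval -0.87 to 2.56; limma adjusted p = 0.640), with 0.27 obtained without IUGR replicate 1 and 1.42 without IUGR replicate 4. With passage as a covariate it was 1.49 (limma unadjusted p = 0.554).

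MTHFD1L, which releases formate in mitochondria, read 241, 165, 193 and 60.4 in IUGR replicates 1 to 4 and 192, 143, 112 and 181 in control replicates 1 to 4. IUGR replicate 4 was well below all other arrays, while IUGR replicates 1 and 3 lay above every control, replicate 3 by under 1 intensity unit. Its difference of -0.06 ± 0.45 (SE; 95% interval -1.13 to 1.00; limma adjusted p = 1) was 0.36 without IUGR replicate 4 and -0.31 with passage as a covariate. The MTHFD2 row, for the dehydrogenase and cyclohydrolase of the same arm, read 227, 133, 237 and 159 in IUGR and 241, 204, 148 and 150 in control cultures. Its groups overlapped throughout, and the difference was 0.01 ± 0.25 (SE; 95% interval -0.58 to 0.61; limma adjusted p = 1). With passage as a covariate it was -1.44 (limma adjusted p = 0.587).

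MTHFD1, the cytosolic enzyme that joins formate to tetrahydrofolate, went by another order of cultures. It read 77.3, 125, 139 and 172 in IUGR replicates 1 to 4 and 135, 46.7, 89.2 and 63.4 in control replicates 1 to 4. IUGR replicate 4, lowest for MTHFD1L and ALDH1L2, was the highest array here, and IUGR replicate 1 was the lowest of its group. The difference was 0.67 ± 0.39 (SE; 95% interval -0.24 to 1.59; limma adjusted p = 0.466). It was 0.94 without control replicate 1 and 0.43 without control replicate 2, and it turned to -0.63 with passage as a covariate (limma unadjusted p = 0.599).

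Set against MTHFD1 within each array, both mitochondrial rows averaged lower in IUGR. The log2 difference of MTHFD1L minus MTHFD1 was 1.64, 0.40, 0.48 and -1.51 in IUGR replicates 1 to 4 and 0.50, 1.61, 0.33 and 1.51 in control replicates 1 to 4, with means that differed by -0.74 (IUGR minus control). For MTHFD2 minus MTHFD1 it was 1.56, 0.09, 0.77 and -0.11 in IUGR and 0.84, 2.13, 0.74 and 1.24 in control cultures, with means that differed by -0.66. Both overlapped widely between the groups, and without IUGR replicates 2 and 4 these were 0.069 and -0.071. No test was made of these within-array differences.

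**Figure D2:**
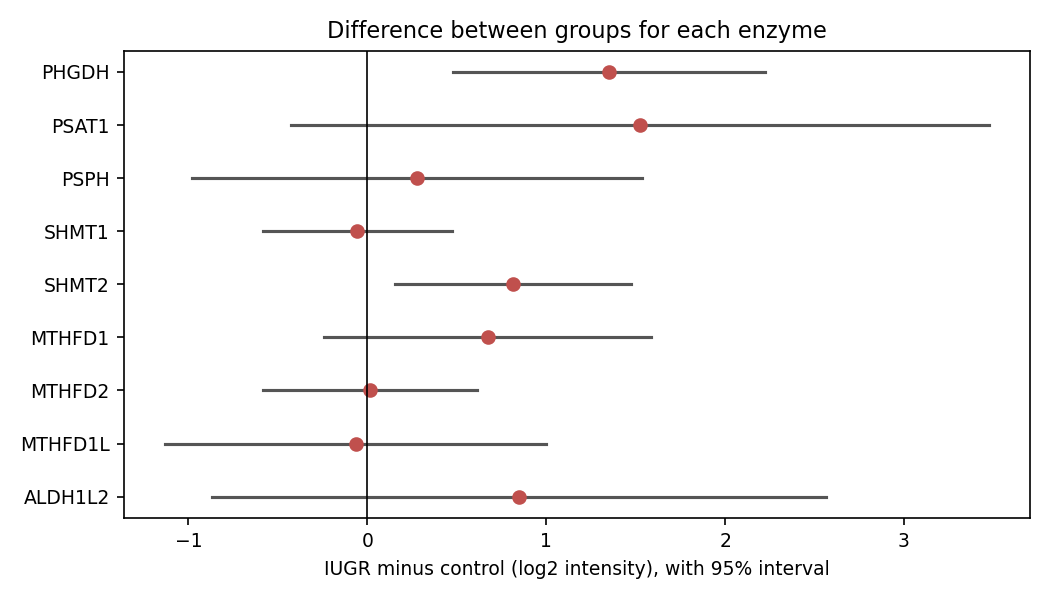
Difference between IUGR and control means of each enzyme in log2 intensity (points) with the 95% interval from limma (lines), 4 cultures in each group. The intervals of PHGDH (0.48 to 2.22) and SHMT2 (0.16 to 1.48) lie above 0 before any adjustment, and those of PSAT1 and ALDH1L2 are the widest.

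Among the 8 enzymes the median difference was 0.74, with 6 higher and 2 lower group means in IUGR. Over all rows the median was 0.00, the middle 50% lay between -0.21 and 0.22, and 50.8% of rows had a higher mean in IUGR. The set was led by particular cultures. IUGR replicate 1 was highest of all 8 arrays for 7 of the 8 enzymes, MTHFD1 being the exception, while it was highest for 12.4% of all rows. IUGR replicates 1 and 3 were each above every control for 7 of the 8, where 23.4% and 20.9% of all rows were. IUGR replicate 2 was so for 3 of the 8 and 24.0% of all rows, and IUGR replicate 4 for 2 of the 8 and 26.7% of all rows. Within the controls, replicate 4 was highest for 5 of the 8 enzymes, replicate 1 for the other 3, and replicate 3 lowest for 6. SHMT1, a row at background, enters the median and the counts of IUGR replicate 1 and of control replicates 1 and 3. It read 12.9 in IUGR replicate 1 and 12.3 in control replicate 1.

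Some enzymes had like profiles across the cultures and others did not. Likeness was measured as the root-mean-square distance between the log2 values of a pair of rows, each centred on its mean over the 8 arrays, among 11545 other rows with a symbol and a mean above background. PSAT1 and ALDH1L2 lay 0.62 apart, and 39 rows lay closer to PSAT1. PHGDH and SHMT2 lay 0.46 apart, and 73 rows lay closer to PHGDH. MTHFD1 and PSAT1 were the farthest pair of all, 1.47 apart, with 7725 rows closer to PSAT1. The closest pair was SHMT1, a row at background, and the MTHFD2 row, 0.24 apart. Values were not scaled, so the distance also follows how much a row varies. The SD over the 8 arrays was 1.40 for PSAT1 and 0.58 for SHMT2.

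The rows nearest to PHGDH were HAPLN3, a hyaluronan link protein, GPT2, an alanine transaminase, and DCLRE1B, a nuclease of telomeres, at distances of 0.22, 0.26 and 0.26, against a median of 0.91 over all rows compared. Those nearest to PSAT1 were TBX5, a T-box transcription factor, TMTC2 and SLC1A5, a glutamine and neutral amino acid transporter, each at 0.27 against a median of 1.39. SHMT2 had the closest neighbour of any enzyme, C1QTNF2 at 0.093, followed by SEC24D, a coat protein of vesicles leaving the endoplasmic reticulum, and SLC22A15 at 0.15 and 0.18, against a median of 0.68. ALDH1L2 had ISLR, SERINC2 and CTH, the cystathionine lyase of cysteine synthesis, at 0.34, 0.36 and 0.37 against a median of 1.12. PSPH had C1H3orf58, DNAJB9, a chaperone partner of the endoplasmic reticulum, and PGM1, a phosphoglucomutase, at 0.21, 0.29 and 0.30. MTHFD1 had KIF24, ALG8 and COQ6 at 0.20, 0.20 and 0.21, and MTHFD1L had C20H6orf108, CDC42EP3 and DSTN at 0.19, 0.20 and 0.22. These distances describe 8 arrays and were not tested.

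A list of glycolytic enzymes, serine carriers and serine-using enzymes had higher group means in IUGR for 13 of 17 measured. The median difference was 0.42, and none passed after adjustment. GAPDH, a glycolytic enzyme upstream of 3-phosphoglycerate, read 5116, 6476, 5108 and 4800 in IUGR and 3190, 3655, 3021 and 4071 in control cultures, without overlap (difference 0.63 ± 0.13 SE; limma adjusted p = 0.125). PGK1, which makes 3-phosphoglycerate, differed by 0.64 ± 0.19 (SE), and ENO1, further down glycolysis, by 0.55 ± 0.14 (SE). The groups of ENO1 did not overlap, while those of PGK1 did. SDSL, a serine dehydratase-like gene of low intensity, differed by -0.51 ± 0.15 (SE). In this list 3 higher genes and 1 lower gene had groups that did not overlap, against 4.37% and 3.99% of all rows. The 3 higher genes, GAPDH, ENO1 and PGAM1, are enzymes of glycolysis at large and not specific to serine.

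Folate transport and cycle genes split, with 10 higher and 8 lower group means among 18 measured, a median of 0.07 and no call. SLC19A1, the reduced folate carrier, read 27.4, 68.8, 19.7 and 84.0 in IUGR replicates 1 to 4 and 13.2, 13.9, 13.7 and 21.5 in control replicates 1 to 4 (difference 1.47 ± 0.50 SE; limma adjusted p = 0.244). It was highest in IUGR replicates 2 and 4, in which the mesothelial and epithelial markers were also highest. SLC46A1, the proton-coupled folate transporter, and MTHFS, which returns 5-formyltetrahydrofolate to the cycle, differed by 1.26 ± 0.43 and 1.08 ± 0.35 (SE). The control mean of SLC46A1, 3.25, lay below the background level, and 1 control array was at the floor, so its difference is not an exact fold. FOLR2, a folate receptor, differed by -0.47 ± 0.17 (SE), with an IUGR mean of 3.09 below the background level and a control mean of 3.56 just above it.

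Genes of purine synthesis, a route in which some steps consume formyl folate, had a median difference of 0.16 over 12 measured. Of these, 8 were higher and 4 lower, with no call. PRPS2, which makes the ribose donor, and PPAT, the committed step, differed by 0.51 ± 0.18 and 0.50 ± 0.30 (SE), ADSSL1, an adenylosuccinate synthase, by 0.62 ± 0.34 (SE) and PAICS by -0.47 ± 0.40 (SE). The summed intensity of the list was lowest in IUGR replicate 1, at 1373, and highest in IUGR replicate 4, at 2304, and ran from 1468 to 2085 in control cultures.

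Methionine cycle and transsulfuration genes had higher group means in IUGR for 12 of 16 measured, with a median of 0.28 and no call. GSS, glutathione synthetase, read 92.5, 88.2, 46.5 and 71.8 in IUGR replicates 1 to 4 and 36.0, 35.8, 41.7 and 37.9 in control replicates 1 to 4. Its groups did not overlap (difference 0.94 ± 0.22 SE; limma adjusted p = 0.138). AHCYL1 and AHCYL2, relatives of the homocysteine-forming hydrolase, differed by 0.48 ± 0.16 and 0.64 ± 0.22 (SE), and BHMT2, a homocysteine methyltransferase, by -0.29 ± 0.11 (SE) with both means below background. The summed intensity of the list was 3002 to 3487 in IUGR and 2346 to 2526 in control cultures, and did not overlap. The sum mostly follows bright rows. MAT2A, the brightest, read 881 to 1608 in IUGR and 759 to 944 in control cultures, with overlap. GSS and AHCYL1 were the 2 higher genes of the list without overlap, where 4.37% of all rows were.

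Amino acid response genes, which in mammalian cells are switched on with ATF4, had higher group means for 18 of 23 measured and a median of 0.25, with no call. GPT2, a mitochondrial alanine transaminase, read 249, 140, 121 and 104 in IUGR replicates 1 to 4 and 50.9, 44.3, 42.4 and 69.1 in control replicates 1 to 4. The groups did not overlap (difference 1.51 ± 0.30 SE; limma adjusted p = 0.115), and GPT2 was the second nearest row to PHGDH. SLC3A2, the heavy chain of amino acid exchangers, did not overlap either (1.37 ± 0.33 SE; limma adjusted p = 0.148). SLC7A11, the cystine transporter, read 151, 137, 94.2 and 14.8 in IUGR and 10.7, 8.04, 9.72 and 42.3 in control replicates 1 to 4, with control replicates 1 to 3 below the background level and IUGR replicate 4 low as for PSAT1 and ALDH1L2. DDIT4, an inhibitor of mTORC1 signalling, differed by 0.80 ± 0.26 (SE). GPT2 and SLC3A2 were the 2 higher genes of the list without overlap, where 4.37% of all rows were. ATF4 itself, named after its values were seen, read 1705, 1346, 1046 and 1089 in IUGR and 1265, 1065, 1103 and 1355 in control cultures, a difference of 0.09 ± 0.17 (SE; limma adjusted p = 0.865).

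The culture with the highest enzyme values was also the highest for most amino acid response genes. IUGR replicate 1 was the highest array for 16 of the 23 and for 12.4% of all rows. The summed intensity of the 23, in which bright rows weigh most, was 8478 there. It was 5321, 4769 and 3910 in IUGR replicates 2 to 4 and 3927 to 4713 in control cultures. IUGR replicate 1 also had the lowest summed intensity of 22 proliferation genes, 1680, where the other IUGR cultures had 4500 to 6872 and controls 2316 to 10057. Its fibroblast marker sum, 18873, was the highest of the 8. MTHFD1 was the 1 enzyme not highest there. Whether growth state or cell mix has a part in these values was not tested.

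Proliferation genes had lower group means in IUGR for 18 of 22, with a median of -0.31, and none passed. The cultures within each group differed widely. The median of the centred log2 values was -1.41, 0.09, 0.57 and 0.27 in IUGR replicates 1 to 4. In control replicates 1 to 4 it was 1.21, 0.002, 0.40 and -1.02, and control replicate 1 was the highest array for 19 of the 22 and for 12.3% of all rows. BIRC5, an inhibitor of apoptosis active in mitosis, differed by 0.93 ± 0.37 (SE). PCNA, the clamp of DNA replication, and the replication helicase genes MCM6 and MCM3 differed by -0.75 ± 0.56, -0.57 ± 0.53 and -0.56 ± 0.55 (SE). Of the MYC family, MYCN read 70.8, 50.4, 62.6 and 65.4 in IUGR and 109, 163, 110 and 90.1 in control cultures without overlap (difference -0.90 ± 0.20 SE; limma adjusted p = 0.128). MYC differed by -0.03 ± 0.07 (SE). In IUGR cultures the values of MYCN were thus lower while those of PHGDH were higher, both without overlap and neither past the adjusted threshold. Of all rows, 3.99% were lower and 4.37% higher without overlap, and a link between MYCN and PHGDH was not tested.

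**Figure D3:**
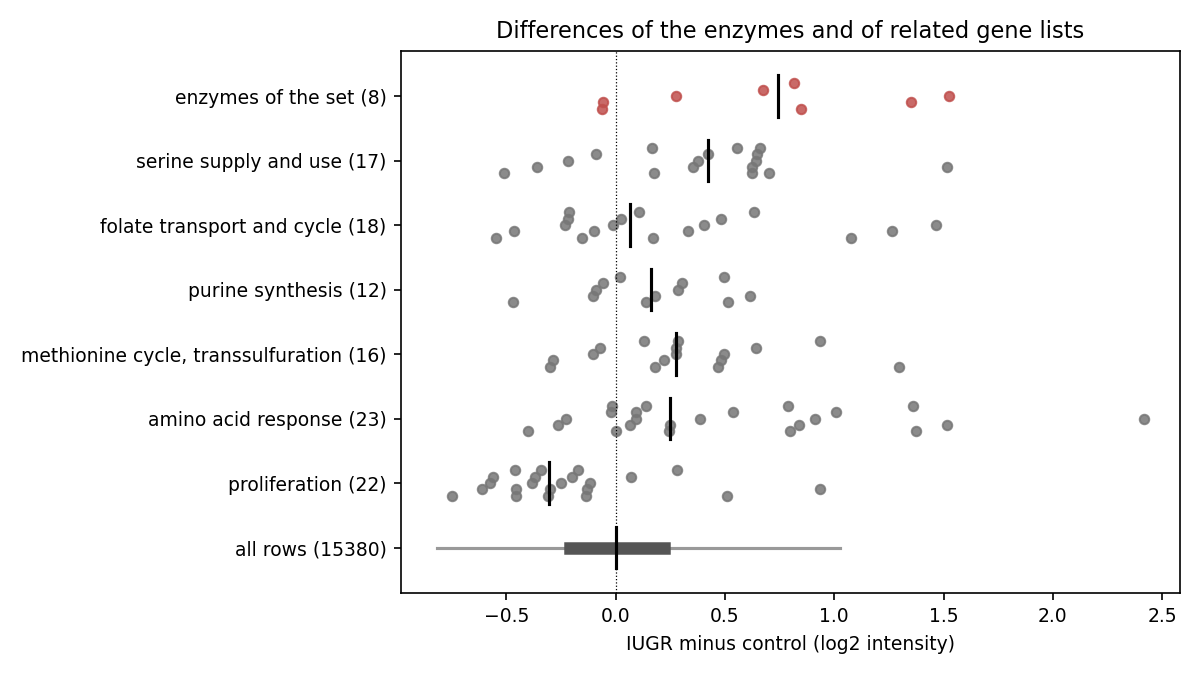
Difference between IUGR and control means in log2 intensity for each of the 8 enzymes (red) and for related gene lists (grey), with the number of genes in brackets and the median as a black bar; the lowest line gives all rows (5th to 95th percentile thin, 25th to 75th thick). The median of the enzymes is 0.74, those of the other metabolic lists run from 0.07 to 0.42, and that of proliferation genes is -0.31. The serine supply and use list includes glycolytic enzymes.

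Results were also read without the arrays that stood apart. Without IUGR replicates 2 and 4, which had the lowest endothelial and highest mesothelial and epithelial sums, the difference was 1.67 for PHGDH, 2.61 for PSAT1, 1.07 for PSPH, 1.08 for SHMT2 and 1.75 for ALDH1L2, and 0.42 for MTHFD1. Without these and control replicate 4, the control with the highest fibroblast sum, it was 1.88 for PHGDH, 2.93 for PSAT1, 1.23 for PSPH, 1.21 for SHMT2 and 2.01 for ALDH1L2. The smallest limma adjusted p among the enzymes in that setting was 0.0868, for SHMT2, in a fit that called 304 rows. MTHFD1 had 0.33 there. The arrays kept in that setting were IUGR replicates 1 and 3 and control replicates 1 to 3. IUGR replicate 1 had the highest fibroblast sum of the 8. Within IUGR, replicates 2 and 4 were the lowest arrays for PHGDH, PSAT1, PSPH and ALDH1L2, and replicate 4 was the lowest for SHMT2. Control replicate 4 was the highest control for all of these. Leaving these arrays out raises the differences by itself, so the rise does not show a clearer effect.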

How the data were processed

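RNA of 4 IUGR and 4 control cultures was measured on 1-colour arrays, with Trizol extraction and biotinylated cRNA per the labels' protocols. The deposited values are intensity units on a linear scale, with rows named by symbol or by NCBI gene number. Background correction, probe summary, normalization and genome build are not given in the sources used here. Array medians were 37.7 to 41.1, so values were not normalised again. The number of arrays limits the precision.

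A floor at the 10th percentile of all values (5.89) was set before the log2 step, which understates differences of dim genes. All 15380 rows entered 1 fit in limma 3.58.1 under R 4.3.3, a two-sided moderated test (lmFit, eBayes) without covariates, with Benjamini-Hochberg adjustment over all rows and a threshold of 0.05, checked on simulated data. Rows named by number were matched to symbols through RefSeq (ARS-UI_Ramb_v3.0), which named 109 of 907. The enzymes and lists were chosen with earlier results of these data known, so list counts are not independent evidence. Of each metabolic and growth list, the genes past the threshold or else up to 4 with the smallest unadjusted p were named, besides genes marked as named later. For each enzyme above background with a range of at least 1, the 3 nearest rows were named. ALDH1L1 matched no row, so its comparison with ALDH1L2 was not made. Promoter and protein sequences were not used here. Replicate numbers only name cultures. The 21 alternative settings are given at the end.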

Additional observations from a re-analysis of the deposited data

How the results depend on the processing

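No enzyme passed the adjusted threshold in any of the 21 settings, and the smallest adjusted p was 0.0868 (SHMT2). PHGDH, PSAT1, SHMT2 and ALDH1L2 kept a positive difference in all 21. Settings that change only the prior or the rows kept leave the difference itself unchanged, so this count overstates how far it was varied. With passage as a covariate PHGDH was 0.14 (limma unadjusted p = 0.901) and PSAT1 was 0.93 (limma unadjusted p = 0.744). The direction turned for PSPH (-2.18; limma unadjusted p = 0.166) and MTHFD1 (-0.63; limma unadjusted p = 0.599) with passage as a covariate. Passage did not overlap between the groups. Within the groups only IUGR replicate 2 and control replicate 1 differed in passage from the rest. The passage term thus rests on these cultures, and differences from this fit, larger or smaller, do not separate growth restriction from passage. Leaving out single arrays gave -0.060 to 0.65 for PSPH, -0.21 to 0.061 for SHMT1, -0.30 to 0.36 for MTHFD1L and -0.11 to 0.17 for the MTHFD2 row. Without IUGR replicates 2 and 4, SHMT1 was 0.14 and MTHFD1L 0.49, and without these and control replicate 4 they were 0.12 and 0.57. With array weights MTHFD1L was 0.038 and the MTHFD2 row -0.028. The MTHFD2 row was -0.016 after quantile normalization, -0.032 after median centring and -1.44 with passage as a covariate. The within-array difference of MTHFD1L minus MTHFD1 was 0.069 without IUGR replicates 2 and 4. The cause of these turns was not tested.

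Over all rows, calls were 0 as reported, 55 of 7690 rows above the median by mean, 61 with log2(value + 1), 1 with a trended prior, 20 with array weights, 10 of 14579 with 1 row per symbol, 0 to 340 without single arrays (340 when control replicate 4 was left out) and 304 with IUGR replicates 2 and 4 left out too. Rows at an unadjusted p under 0.05 numbered 1375 among rows above the median and 1304 with passage as a covariate. Rows whose groups did not overlap numbered 1286 with all arrays and 800 among rows above the median. They numbered 1597 to 2629 without single arrays, 2929 without IUGR replicates 2 and 4 and 5100 without these and control replicate 4. Without IUGR replicates 2 and 4, only IUGR replicates 1 and 3 remained in that group. Leaving out arrays can only keep or raise this count, so its rise does not show a clearer difference between the groups. No paired analysis was made, because each title names its own animal and the labels state no pairing of IUGR with control cultures. The leading number of the titles is shared by control replicate 1 with IUGR replicates 2 and 3, and by control replicates 3 and 4. As a random block it gave 1.35 for PHGDH (limma adjusted p = 0.176) and 0.82 for SHMT2 (0.243), called 0 rows and turned no enzyme. No enzyme value was flagged as an outlier among 18 groups of 4 checked.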
